A study of Homo sapiens with 40 samples.

Results

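The experiment described here is the comparison of SKMM1 myeloma cells carrying the shRNA shCasp10-2 with SKMM1 cells carrying a control shRNA, shCtrl, after induction of both with doxycycline. It comprised the 4 arrays whose titles name both shRNAs, of 40 arrays in the series, 1 array for each of days 1, 2, 3 and 4. SKMM1 is a human multiple myeloma line. Both cell populations had been transduced with retroviral vectors whose shRNA was switched on with 20 ng/ml doxycycline for 24 to 96 hours, so transduction and doxycycline were common to both channels. Total RNA of the shCasp10-2 cells was labelled with Cy5 and that of the shCtrl cells with Cy3, 50 µg for each dye, and hybridised to lymphochip arrays, which carry spotted probes for lymphoid genes. The other SKMM1 set used for comparison, also 4 arrays of days 1 to 4, had shCasp10-2 cells without doxycycline of the same day in the Cy3 channel. Its day 1 array has no repeat number, and its day 2 to 4 arrays are labelled as the first repeat.

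Caspase-10 is an initiator caspase related to caspase-8, and it is recruited with the adaptor FADD to activated death receptors. In myeloma cells it is known to act with cFLIP, the product of CFLAR, as a protease that restrains autophagy and cleaves BCLAF1. An inducible shRNA lowers the mRNA it targets, and an induced control shRNA serves as a reference for doxycycline and for shRNA production.

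Each value is a log ratio that the authors deposited, read as the log2 ratio of shCasp10-2 over shCtrl, so that a value below 0 is lower in the shCasp10-2 cells. The labels name the dye of each channel, which makes this direction likely without stating it, and the base of the logarithm is unstated in the sources used here. The 4 arrays had probe medians between 0.014 and 0.047, and between 0.0918% and 0.63% of probes lay above 3. The highest of these shares was on the day 2 array. Dyes were never swapped among the 4 arrays, and each mean against 0 therefore includes any dye bias. A difference between the 2 transduced populations that preceded induction is part of it as well, and neither can be told apart from the effect of shCasp10-2 in these arrays alone. The arrays are 4 days of 1 course, and their p-values reflect nothing beyond the spread from day to day. Ratios hold no levels, so the labelled cell type could not be checked against the level of its markers, and fewer cells of a type cannot be told apart from less RNA per cell.

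CASP10, the targeted gene, was lower in the shCasp10-2 cells on each of the 4 days. The mean of its 6 probes was -0.43, -0.74, -0.68 and -0.57 on days 1 to 4, with no day above 0. The 4-day mean was -0.61 ± 0.14 (SD, n = 4), and the moderated test of limma across all features gave a Benjamini-Hochberg adjusted p of 0.0166. The call rested on particular arrays, since the mean was -0.56 with an adjusted p of 0.0559 without day 2 and -0.58 with 0.0723 without day 3. The exact two-sided sign-flip test over the 4 arrays gave p = 0.125, which is the smallest value that 4 arrays can give. The probes did not move together: 5 of 6 lay below 0 on every day, and the remaining probe lay between 0.31 and 0.89. Against uninduced cells the same 6 probes averaged -0.89, -0.51, -0.25 and -0.32. By this mean CASP10 was farthest below 0 on day 1 with that reference and on day 2 with the control shRNA. The day 2 mean holds 1 probe at -1.98. With the control shRNA the median of the probes was -0.74 on day 2 and lowest on day 3, at -0.85.

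**Figure D1:**
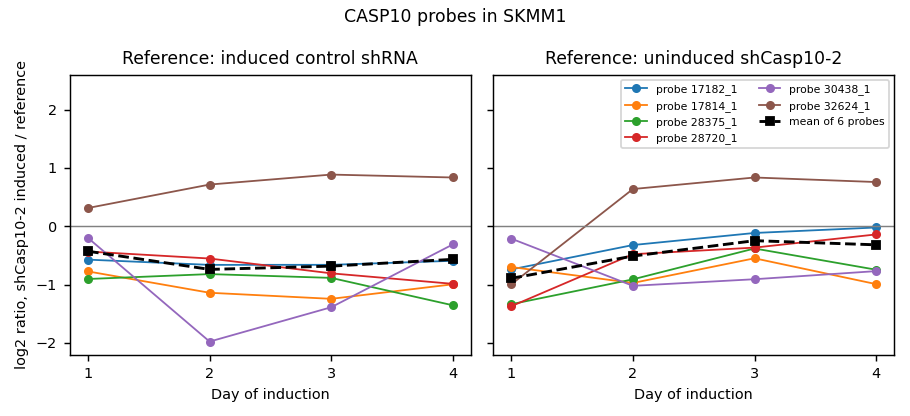
CASP10 probes by day of induction (x axis) as log2 ratios of induced shCasp10-2 cells over the reference (y axis), against induced control shRNA (left) and uninduced cells (right). Coloured lines are the 6 probes and the black dashed line is their mean, which runs between -0.74 and -0.43 on the left; 1 probe lies above 0 there on all days.

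The mean response covered many genes in both directions. Of 9681 features, a feature being a gene or an unnamed probe, 1302 fell (13.4%) and 1780 rose (18.4%) at an adjusted p of 0.05 with limma. Here and below, fell and rose mean called lower or higher in the shCasp10-2 cells than in the control shRNA cells, not a change over the days. Of 4604 named genes, 524 fell (11.4%) and 783 rose (17%). By a rule of size, at least 2-fold on each of days 2, 3 and 4, 33 named genes were lower (0.717%) and 35 higher (0.76%). The counts depended on the arrays and on the test: without the day 3 array 472 features fell and 576 rose, and the ordinary test without moderation called 70 and 55. Among named genes, 170 fell and 208 rose without day 3. The median of all named genes was 0.06. The counts of gene lists given below are to be read against the 11.4% of named genes that fell and the 17% that rose. All lists were chosen with earlier results of these data known, so their directions are not independent evidence. Over the 33 lists, 112 of 544 distinct measured genes fell and 41 rose, so the lists as a whole lean to the lower side.

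The 15 leading lower genes, those with the most negative mean among called genes that were below 0 on all days, included regulators of lymphoid signalling and motility. TRAF3IP3, a TRAF3-binding modulator of JNK signalling, was -1.22, -2.17, -2.0 and -2.06 on days 1 to 4, with a mean of -1.86 ± 0.19 (SE) and an adjusted p of 0.00694 by limma. It was least reduced on day 1. DOCK2, the exchange factor for RAC in blood cells, was -1.55, -1.75, -1.88 and -1.65, one of the narrowest ranges among the 15. CKLF, a chemokine-like factor, was -1.47, -1.95, -1.54 and -1.97, and so stayed past 2-fold on every day. PPP1R18, a protein phosphatase 1 subunit that binds actin, was -1.64, -1.29, -1.47 and -1.28 and likewise stayed past 2-fold. LGALS1, which encodes galectin-1, was -0.90, -1.62, -1.58 and -1.83, with its smallest reduction on day 1. GZMA, the granule protease granzyme A, had 3 probes below 0 and values of -1.35, -1.81, -2.31 and -1.89.

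Other leading lower genes belonged to several functions. NDRG1, a hypoxia- and stress-induced gene, was -1.07, -1.62, -1.75 and -1.40 (adjusted p = 0.00694 by limma). DUSP6, the phosphatase of ERK, was -1.24, -2.11, -1.35 and -1.04 (adjusted p = 0.00697 by limma). Both genes were past 2-fold on all days, and DUSP6 was lowest on day 2. UBE2L6, the conjugating enzyme for ISG15, went from -0.52 on day 1 to between -2.13 and -1.6 on later days. PLOD1, a collagen lysyl hydroxylase, CLDN3, a tight junction claudin, and PRAME, a cancer-testis antigen, had means of -1.52, -1.48 and -1.48. Single days weighed most in MED28, SEC23B and FGD2. The Mediator subunit MED28 was -0.28 on day 2 and -2.53 on day 4. SEC23B, of the COPII coat, was -3.02 on day 3, and its mean moved from -1.39 to -0.85 without that day. FGD2, an exchange factor for CDC42, was -3.06 on day 2 and its mean moved from -1.38 to -0.82 without it. The calls of MED28 and FGD2 were lost without day 3 (adjusted p = 0.0699 and 0.112 by limma), and those of MED28 and SEC23B without day 1 (0.0538 and 0.0666).

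The 15 leading higher genes were led by values of day 2. EAF2, an ELL-associated elongation factor, was 1.27, 4.75, 1.72 and 0.93 on days 1 to 4, with a mean of 2.17 ± 0.58 (SE) and an adjusted p of 0.0285 by limma. Its mean was 1.31 without day 2, and its call was lost without day 1 (adjusted p = 0.0523), without day 3 (0.0849), with robust moderation (0.0887) and with a spread pooled over both SKMM1 sets (0.0564). The kinase A anchor AKAP11 (4.06 on day 2), the splicing regulator PTBP2 (3.58), the adaptor NCK2 (4.30), the lysophospholipid receptor P2RY10 (3.51) and the ubiquitin ligase subunit WDR26 (3.63) were also highest on day 2. Without day 2 the means of AKAP11, NCK2, P2RY10 and WDR26 moved from 1.99, 1.83, 1.55 and 1.5 to 1.30, 1.01, 0.89 and 0.79, and without day 3 their calls were lost (adjusted p between 0.0789 and 0.0851 by limma). As the rule for these genes requires, they were above 0 on each of the other 3 days.

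The other 9 leading higher genes stayed under 3.5 on each day. CT75 was 1.6, 2.53, 2.67 and 1.57 and JAZF1, a zinc finger gene, was 1.33, 2.01, 1.55 and 1.11, both with an adjusted p of 0.00694 by limma. S1PR1, the sphingosine-1-phosphate receptor that guides lymphocyte exit from tissue, was 1.05, 2.24, 1.29 and 2.39. TENT5C, a poly(A) polymerase that is often mutated in myeloma, was 0.82, 2.25, 1.48 and 1.54, and so was past 2-fold from day 2. CD209, a dendritic cell lectin, was 2.30, 2.20, 1.89 and 1.07, and IL36G, a cytokine of the IL-1 family, was 1.97, 1.62, 1.87 and 1.08. Both were lowest on day 4. The splicing factor U2AF2 and the zinc finger gene ZKSCAN7 were uneven. U2AF2 ranged from 0.18 on day 4 to 2.77 on day 2, and ZKSCAN7 from 0.65 on day 1 to 3.08 on day 4. AKAP9, another kinase A anchor, had a mean of 1.55.

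**Figure D2:**
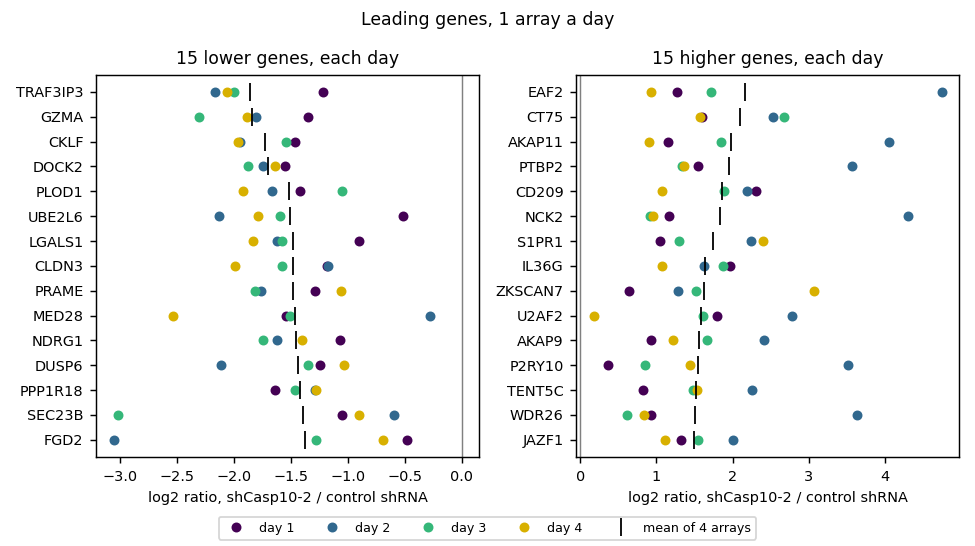
Log2 ratio of shCasp10-2 over control shRNA (x axis) for the 15 lower (left) and 15 higher (right) leading genes, with 1 point per day and a black tick at the mean of the 4 arrays. All 4 points of every gene lie on 1 side of 0, as the choice of genes requires, and the day 2 points of EAF2, AKAP11, PTBP2, NCK2, P2RY10 and WDR26 lie above 3.5.

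Single-probe genes made up 40.3% of the called lower genes, 48.9% of the called higher genes and 41.9% of all tested genes. Of genes with several probes, 278 of 313 called lower genes and 345 of 400 called higher genes had all probe means on 1 side of 0, beside 1345 of 2674 tested genes. The called genes were called on the average of these same probes, so a higher share is built into the choice.

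In H929 and KMS12, 2 other myeloma lines with shCasp10-2 or shCasp10-3 measured against uninduced cells, the 15 lower genes were compared with all named genes. Their means over the arrays of day 2 or later with narrow distributions were below 0 for 14 of 15 genes in H929 and 14 of 15 in KMS12, with medians of -0.24 and -0.25. Of the 15 higher genes, 6 were below 0 in H929 and 14 in KMS12. Among all 4604 named genes, 2584 were below 0 in H929 and 3109 in KMS12, with medians of -0.02 and -0.09. The means cover 8 arrays of H929 and 6 of KMS12, each array with equal weight. They include a day 3 shCasp10-2 array of each line with 6.38% (H929) and 5.98% (KMS12) of probes below -3. The part of these arrays in the counts was not tested. These lines had another reference, and the values were not tested against those of SKMM1.

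Glycolysis genes stood mainly on the lower side. Of 19 measured, 10 fell and 0 rose, with a median of -0.42 beside 0.06 for all named genes. ENO2, an enolase, was -0.83, -1.08, -1.04 and -1.87 on days 1 to 4 (mean -1.20, adjusted p = 0.00798 by limma). PGK1, phosphoglycerate kinase, was -0.69, -1.56, -1.34 and -0.86 (adjusted p = 0.00824 by limma). Neither gene was above 0 on any day. PKM, pyruvate kinase, was -0.72, -0.81, -1.57 and -1.39, and LDHA, lactate dehydrogenase, was -0.58, -0.80, -0.58 and -1.28. The glucose transporters SLC2A1 and SLC2A3 had means of -0.94 and -0.79, and HK1, TPI1, ENO1 and PGAM1 had means of -0.71, -0.62, -0.59 and -0.42. Of the 9 members that did not pass, GPI, the isomerase of the second step, was between -0.93 and -0.53 on days 1 to 3 and 1.11 on day 4. GAPDH had a mean of -0.02. The list median was -0.45, -0.67, -0.67 and -0.17 on days 1 to 4, so day 4 was the least reduced. Without day 3, 5 members fell, and the ordinary test called 0.

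Promoter windows of the 3 called glycolysis genes that hold the hypoxia response core ACGTG are shown. This core is a letter pattern bound by hypoxia-inducible factor, and other forms of its binding pattern were not searched. The core searched was ACGTG on either strand, read as CACGT on the other, and overlapping matches such as CACGTG count as 2. Each window holds 300 bases around the gene start in RefSeq on GRCh38.p14, most of them upstream, is written 5′ to 3′ on the strand of the gene, and has the matches in capitals. They are ENO2 at chr12:6914330-6914629, PGK1 at chrX:78103998-78104297 and LDHA at chr11:18394313-18394612, all on the plus strand.
ENO2: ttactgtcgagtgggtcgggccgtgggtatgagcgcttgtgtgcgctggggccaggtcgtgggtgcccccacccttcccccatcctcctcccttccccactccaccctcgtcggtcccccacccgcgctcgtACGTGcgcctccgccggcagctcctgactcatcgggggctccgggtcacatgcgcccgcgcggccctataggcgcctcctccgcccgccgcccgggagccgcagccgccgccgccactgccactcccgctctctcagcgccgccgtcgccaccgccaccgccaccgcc
PGK1: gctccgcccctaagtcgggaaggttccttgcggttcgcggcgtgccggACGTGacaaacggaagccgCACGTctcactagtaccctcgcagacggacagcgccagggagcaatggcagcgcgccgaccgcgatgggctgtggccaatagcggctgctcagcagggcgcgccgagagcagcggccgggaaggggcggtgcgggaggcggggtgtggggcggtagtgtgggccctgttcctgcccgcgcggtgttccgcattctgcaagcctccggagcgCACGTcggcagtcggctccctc
LDHA: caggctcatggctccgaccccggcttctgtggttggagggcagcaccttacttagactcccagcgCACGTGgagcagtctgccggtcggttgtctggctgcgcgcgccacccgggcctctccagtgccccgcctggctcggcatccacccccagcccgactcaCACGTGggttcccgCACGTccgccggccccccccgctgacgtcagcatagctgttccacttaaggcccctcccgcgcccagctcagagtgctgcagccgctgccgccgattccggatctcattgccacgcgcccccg
The window of ENO2 held 1 match, that of PGK1 3 and that of LDHA 5. The core was present in the windows of 3 of 9 lower glycolysis genes with a promoter entry (33.3%) and of 5 of 9 that did not pass (55.6%), beside 26.9% of measured genes and 21.4% of 35116 promoters of this length. The match is a description of the letters only.

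**Figure D3:**
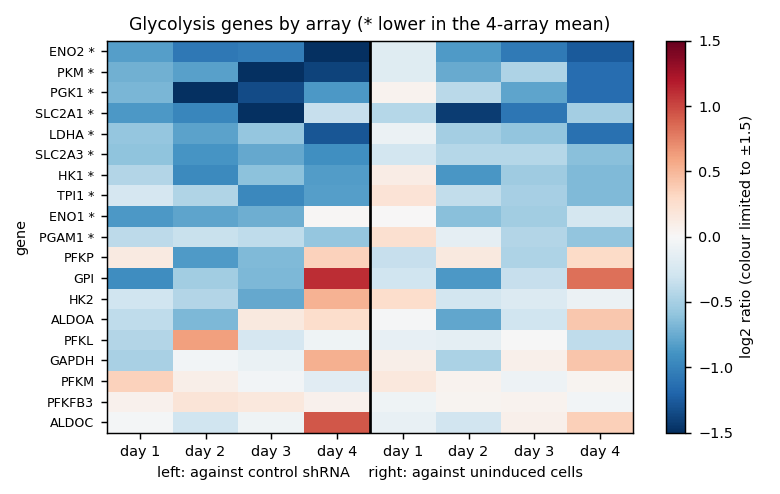
Log2 ratios of the 19 measured glycolysis genes (rows, ordered by mean) on each array (columns), with days 1 to 4 against control shRNA on the left of the line and against uninduced cells on the right; blue is lower and red higher in induced shCasp10-2 cells, and an asterisk marks the 10 genes that fell. The upper 10 rows are blue on days 1 to 3 on the left, while GPI, HK2, GAPDH and ALDOC are red on day 4.

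Hypoxia response genes followed in part. Of 15 measured, 7 fell and 1 rose, with a median of -0.22. Besides NDRG1, TIMP1, an inhibitor of metalloproteinases, was -0.85, -1.42, -1.5 and -1.42 (adjusted p = 0.00694 by limma). It was past 2-fold from day 2. ADM, the vasodilator peptide adrenomedullin, BNIP3L, a mitophagy receptor, SIAH2, a ubiquitin ligase, P4HA1, a collagen prolyl hydroxylase, and EGLN1, the oxygen-sensing prolyl hydroxylase, had means of -0.99, -0.91, -0.68, -0.68 and -0.57. BNIP3, a paralogue of BNIP3L, was 0.65, 0.60, 0.76 and 0.36 and so was higher than in the control shRNA cells, while BNIP3L was lower. The windows of 4 of 5 lower members with a promoter entry (80.0%) and of 4 of 7 others (57.1%) held the core. The angiogenic factor VEGFA was between -0.24 and -0.20 on the 4 days (adjusted p = 0.216 by limma). Without day 3, 3 members of the list fell and 0 rose.

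Cytoskeleton, galectin and matrix genes had the lowest median of the 33 lists, -0.54. Of 20 measured, 9 fell and 0 rose. In addition to LGALS1, PPP1R18 and TIMP1, the actin-binding TMSB4X, PFN1 and LCP1 had means of -0.74, -0.68 and -0.62. The light chain MYL6, the annexin ANXA1 and the inhibitor TIMP2 had means of -0.60, -0.56 and -0.52. TMSB4X was -0.44, -0.91, -0.77 and -0.83, with its smallest reduction on day 1. Without day 3, 4 members fell. This list, like the others, was compiled with earlier results of these arrays known, so its direction is not independent evidence.

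The cell cycle lists had medians below 0 from day 1. DNA replication genes numbered 27 measured, of which 6 fell and 0 rose, with a median of -0.32. PCNA, the sliding clamp, was -0.68, -0.82, -0.67 and -1.03, and MCM2, of the replicative helicase, was -0.82, -0.71, -0.66 and -0.62 (adjusted p = 0.00877 and 0.0102 by limma). Both were at least as low on day 1 as on day 3. RPA3, LIG1, RFC4 and RFC3 had means of -0.67, -0.52, -0.48 and -0.47. Of 31 mitosis genes, 8 fell and 1 rose, with a median of -0.30. The spindle checkpoint gene MAD2L1 was -0.61, -0.98, -1.17 and -1.10, the kinase gene CDK1 was -0.61, -0.81, -0.80 and -1.14, and the centromere histone CENPA was -0.85, -0.73, -0.71 and -0.76. The condensin subunit SMC2, with 1 probe, had a mean of 0.77 and was the member that rose. Without day 3, 2 replication and 4 mitosis genes fell.

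Of 19 genes for G1 cyclins, their kinases and inhibitors, 7 fell and 1 rose, with a median of -0.23. CCND2, the D-type cyclin common in myeloma, was -0.81, -0.56, -1.10 and -0.69. CCNE1, CDK4 and CDK2, which drive entry into S phase, had means of -0.58, -0.57 and -0.55, and RB1 and RBL2, which restrain it, had means of -0.51 and -0.51. The inhibitor CDKN2A was 0.43, 0.41, 0.46 and 0.37. The members that fell thus include genes of opposite roles. Without day 3, 0 members were called in either direction (limma), and the ordinary test called 0 lower and 1 higher.

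**Figure D4:**
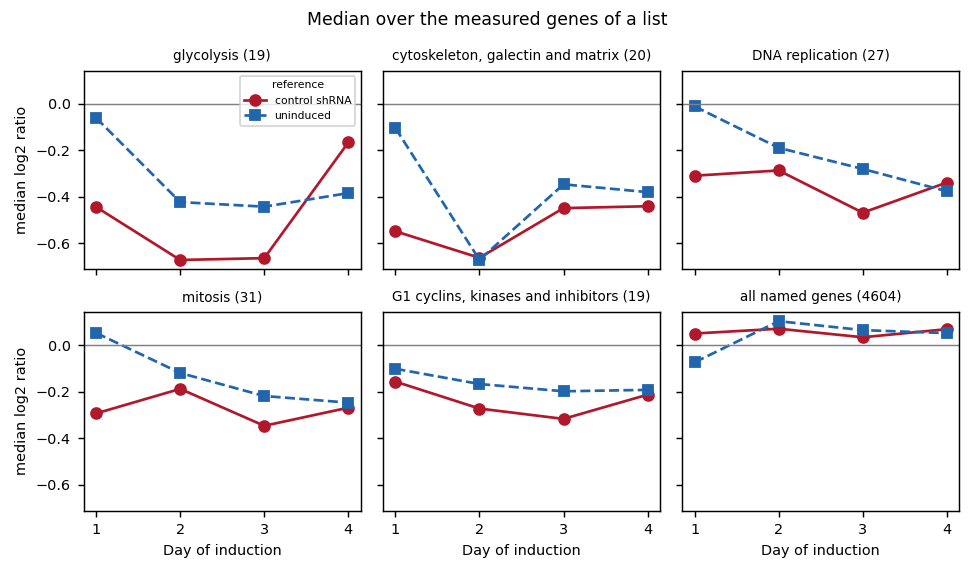
Median log2 ratio (y axis) over the measured genes of each list, with their number in parentheses, by day of induction (x axis), against control shRNA (red circles) and uninduced cells (blue squares). Against control shRNA the lists lie below 0 from day 1 (glycolysis -0.45, mitosis -0.29), whereas against uninduced cells their day 1 medians lie nearer 0 (-0.06 and 0.05).

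ERK feedback and immediate-early genes were split. Of 20 measured, 4 fell and 1 rose, with a median of -0.19. DUSP5, a nuclear ERK phosphatase, was -1.12, -0.96, -1.52 and -1.68, and the ETS factors ETV4 and ETV5 had means of -0.72 and -0.57, beside DUSP6. These 4 are known ERK-induced genes. EGR3, an immediate-early gene, had a mean of 0.87. Without day 2, 2 members fell and 1 rose, and without day 3, 2 fell.

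Of 20 measured genes of caspase-10 and death receptor signalling, 4 fell and 2 rose, with a median of -0.18, beside 11.4% and 17% of all named genes. FADD, the adaptor of caspase-10, was -0.31, -0.56, -0.64 and -0.56 (adjusted p = 0.0269 by limma). The death domain adaptor CRADD had a mean of -0.52 and the receptor FAS of -0.44. CASP2 was 0.67, 1.04, 1.27 and 0.59, and XIAP, an inhibitor of effector caspases, had a mean of 0.63. CASP8 had a mean of -0.22 and CFLAR of -0.18 (adjusted p = 0.233 and 0.475 by limma). The list does not hold every related gene. TNFRSF6B and NOL3, outside it and with 1 probe each, had lower means than any member, -1.12 and -1.05 (adjusted p = 0.00697 for both by limma). Other related genes outside the list were not counted. Without day 2 or without day 3, 0 members of the list were called lower by limma, CASP10 included, and 1 was called higher.

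Of 17 measured genes on the BCL2 family list, 1 fell and 2 rose: BNIP3L, BNIP3 and BBC3, which encodes the death inducer PUMA. The list does not hold the whole family. BCL2L10, a member outside it with 1 probe, was 1.44, 0.87, 1.02 and 0.86 (adjusted p = 0.00728 by limma). BBC3, with 1 probe, was 1.39, 0.78, 0.57 and 0.94. BCLAF1 was 0.48, 0.65, 0.45 and 0.03 (mean 0.40, adjusted p = 0.082 by limma), above 0 on each day but short of the threshold. Of 28 listed autophagy genes 7 were measured, of which 1 fell and 1 rose. TFEB, a transcription factor of lysosome and autophagy genes, was -0.17, -0.62, -0.53 and -0.79, and WIPI1, a phosphoinositide-binding autophagy protein, had a mean of 0.48. ATG5, UVRAG, ATG12, PIK3C3 and GABARAPL2 did not pass. Limma called 0 autophagy genes without day 2, day 3 or day 4. Of 11 lysosome genes 2 fell, LAMP1 with a mean of -0.80 and CD63 with -0.68, and 0 did so by limma without day 2 or without day 3. Over all named genes 11.4% fell and 17% rose.

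Plasma cell identity genes had a median of -0.02, near that of all genes. Of 15 measured, 3 fell and 1 rose. SUB1, CCND2 and TNFRSF17, the receptor BCMA, had means of -0.85, -0.79 and -0.48. ELL2, an elongation factor of antibody-secreting cells, was 0.38, 0.82, 0.59 and 1.46. The regulators IRF4, PRDM1 and XBP1 had means of 0.09, 0.09 and -0.15 (adjusted p = 0.656, 0.739 and 0.42 by limma). Among 23 mature B cell markers, 2 fell (CD52 and LTB, means of -0.82 and -0.62) and 3 rose (PAX5, EBF1 and CIITA, means of 0.58, 0.57 and 0.48), no larger a share than over all named genes. Without day 3 limma called 0 of these markers in either direction, and without day 2 1 fell and 0 rose.

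Of 30 interferon response and MHC class I genes, 8 fell and 3 rose, with a median of -0.20. The antigen presentation genes HLA-B, B2M, HLA-E and PSMB9 had means of -0.74, -0.56, -0.52 and -0.69, and the membrane proteins IFITM1 and IFITM3 had -0.72 and -0.78. OAS3, IFIT1 and IFIT2, which are induced by interferon, had means of 0.97, 0.63 and 0.51, so interferon genes moved both ways. Probes for HLA genes can read closely related family members. Of 24 ribosomal protein and translation factor genes 7 fell and 0 rose, with RPS16 at -1.06, -0.89, -1.0 and -0.80. Without day 3, 2 of the interferon list and 3 of the ribosomal list fell.

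T and NK cell markers moved as well, on a line labelled as myeloma. Of 24 measured, 8 fell and 4 rose, with a median of -0.30 and daily medians between -0.46 and -0.07. CD3D was -0.79, -1.14, -1.49 and -2.0, GNLY had a mean of -0.88 and LCK of -0.87, beside GZMA. Their daily values lay below 0 throughout. CD8B, CD247, GZMK and CD5 had means of 1.09, 0.64, 0.55 and 0.48. Of 13 myeloid markers 2 fell and 2 rose (median 0.01), and of 7 erythroid and platelet markers 0 fell and 2 rose (median 0.24). Without day 3, 4 T and NK cell markers fell and 0 rose. The part of these genes in the other results was not tested.

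No feature passed for a change with day. The slope over the 4 days called 0 of 9681 features (0%) with limma, where 698 had an unadjusted p under 0.05 and the smallest adjusted p was 0.216. The ordinary test called 1, and limma without day 2 called 4. Named genes were taken here by the smallest unadjusted p of the slope. Downward, BHLHE40, a hypoxia- and stress-responsive repressor, was -0.01, -0.62, -1.11 and -2.17 (adjusted p = 0.442 by limma). Upward, the translation initiation factor EIF4G1 was -0.02, 0.68, 1.28 and 2.72 (adjusted p = 0.442 by limma). CDT1, which licenses replication origins, was -0.71, -0.04, 0.44 and 1.43, and GTF2F1, of the general transcription factor TFIIF, was 0.22, 0.75, 1.83 and 2.38. All 4 genes were chosen for a small unadjusted p of their slope, not for its steepness, and none passed the threshold for slope. Across features, the Pearson correlation between days was between 0.452 and 0.621, and that of day 1 with days 2, 3 and 4 was 0.566, 0.618 and 0.461, a description across features of arrays that may share RNA pools and processing.

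No feature passed for a difference of the mean response from that against uninduced cells. With limma 0 of 9681 features (0%) were called, 647 had an unadjusted p under 0.05 and the smallest adjusted p was 0.65. The ordinary test called 1. In the uninduced set, day 1 correlated with days 2, 3 and 4 across features at -0.144, -0.179 and -0.125. Correlations among those later days lay between 0.472 and 0.641. That day 1 array is part of this fit, and without day 1 limma also called 0 features. A count of 0 calls does not show that the 2 references gave the same response. Whether both sets were hybridised with 1 and the same induced RNA is unstated in the sources used here. GADD45A, a growth arrest and DNA damage gene, was -0.85, -0.84, -0.94 and -0.70 against control shRNA and 0.29, -0.14, -0.13 and 0.13 against uninduced cells. GADD45A was among the genes chosen for the smallest unadjusted p of this difference, not for its size, and did not pass the threshold. HSPD1, the mitochondrial chaperonin, was 1.68, 1.16, 0.43 and 0.58 against control shRNA and -0.59, 0.13, -0.84 and 0.29 against uninduced cells, and was chosen in the same way.

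The first day differed between the references. Against control shRNA, 456 features were past 2-fold upward and 434 downward on day 1, and against uninduced cells 66 and 570. Of the 33 named genes that were 2-fold lower on days 2 to 4 against control shRNA, all 33 were below 0 on its day 1 and 13 were past 2-fold, with a median of -0.87. Against uninduced cells 32 of the 33 were below 0 on day 1 and 0 past 2-fold, with a median of -0.29. Of the 35 higher genes, 32 were above 0 on day 1 against control shRNA and 15 past 2-fold, with a median of 0.94. Against uninduced cells 14 of the 35 were above 0 on day 1 and 0 past 2-fold, with a median of -0.04. On days 2 to 4 the medians of these lower and higher genes against uninduced cells were -0.98 and 1.12, in arrays that may hold the same induced RNA. The genes were chosen on the control shRNA arrays, so a larger day 1 departure in that set is partly built into the choice. The day 1 medians of all named genes were 0.05 against control shRNA and -0.07 against uninduced cells. Their shares below and above 0 on day 1 were not counted.

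**Figure D5:**
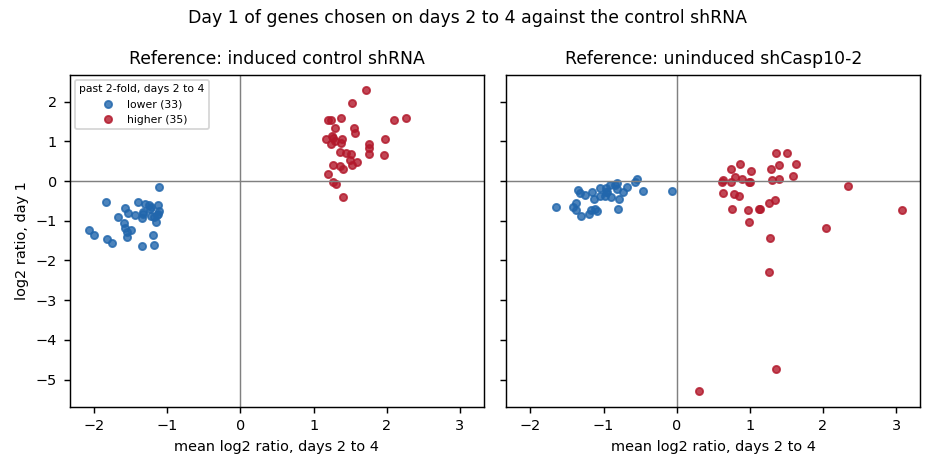
Day 1 log2 ratio (y axis) against the mean of days 2 to 4 (x axis) for the 33 lower (blue) and 35 higher (red) genes chosen on days 2 to 4 against control shRNA, shown against control shRNA (left) and uninduced cells (right). On the left 33 blue points lie below 0 and 32 red points above 0 on day 1; on the right 21 of the 35 red points do not lie above 0.

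A test of whether the step from day 1 to the later days differed between the references, added after the values were seen, called 155 of 9681 features with limma (1.6%). For 151 of them the step was more negative against control shRNA, and for 4 it was more positive. Day 1 is a single array in each set, so the spread in this test comes from days 2 to 4. The 151 features had a day 1 median of 1.00 against control shRNA and of -2.91 against uninduced cells. In that uninduced set 74 of them were below -3 on day 1, as were 106 features in all (1.09%). IL36G, described above, was -4.73 on day 1 against uninduced cells and 0.96, 0.91 and 2.19 afterwards. These low values on the day 1 array of the uninduced set went with the calls, and their part in the day 1 counts was not tested. The test called 0 of the 524 lower genes and 45 of the 783 higher genes, and 0 of the 33 and 4 of the 35 genes past 2-fold.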

How the data were processed

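The 4 arrays compared Cy5-labelled RNA of induced shCasp10-2 cells with Cy3-labelled RNA of induced shCtrl cells, per the labels. The authors deposited 1 processed log ratio per probe and array, used as log2 values, for 15246 probes with 0 missing; how background was corrected and values normalised is not given in the sources used here, and signal over background is unknown. The number of arrays limits the precision. Of the probes, 10169 had 1 gene symbol, 4 several and 5073 none, and probes of 1 symbol were averaged, which gave 9681 features and 4604 named genes. Of these probes, 10128 matched RefSeq by gene identifier.

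Means against 0, slopes over day and differences from the uninduced set were fitted with lmFit and eBayes of limma 3.58.1 in R 4.3.3, with Benjamini-Hochberg adjustment over all features at 0.05. The script was tested on simulated data. Named genes were the 15 called genes in each direction with the largest mean and 1 sign on all days. For slope and for difference, where none passed, they were the 8 in each direction with the smallest unadjusted p. For each list they were mainly called members, not always all of them or the largest. Some members that did not pass were named beside them. Arrays with over 10% of probes beyond 3 in either direction were called wide and left out of the values in H929 and KMS12. Alternatives covered centring, probe summary, moderation, days used, fold size, replicate block and leaving out each day. The genes and lists were chosen with earlier results of these data known.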

Additional observations from a re-analysis of the deposited data

Results flagged for a closer look

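On the day 2 array against control shRNA, 3 of the 31 genes examined (the 30 leading genes and CASP10) had a value far from their other days: PTBP2 at 3.58, NCK2 at 4.30 and WDR26 at 3.63. Their other days lay between 1.34 and 1.54, 0.91 and 1.16, and 0.62 and 0.93. Chance flags about 1 in 20 groups that were not selected, and days are points of a course rather than replicates. The 30 leading genes were chosen for the mean of these same values, which 1 extreme day moves. The rate therefore does not apply to them. The day 2 array also had the highest share of probes above 3 (0.63%). For IL36G the step from day 1 to later days differed between the references by -6.52 (adjusted p = 0.00998 by limma), as the step did for 155 features in all. This test was added after the values were seen, has 1 day 1 array in each set and rests for IL36G on 1 value, -4.73 against uninduced cells.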

How the results depend on the processing

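The leading genes were chosen for 1 sign on all days, and CASP10 was below 0 on all days, so their directions could not turn under these alternatives. With each probe as a feature, 2103 were lower and 2741 higher in the mean response and 200 and 191 by the 2-fold rule; with the ordinary test, 70 and 55 were called, 1 by slope, 1 by difference, and CASP10 stayed at -0.61 with an adjusted p of 0.0596. Days 2 to 4 alone gave 808 lower and 1188 higher. The 2-fold rule over days 1 to 4 gave 46 and 47, and a 1.5-fold rule 531 and 717. Leaving out each day in turn gave 472 to 1083 lower and 576 to 1395 higher features, 0 to 4 by slope, 152 to 225 lower and 180 to 401 higher by the 2-fold rule, and -0.66 to -0.56 for CASP10. Of the 30 leading genes, the ordinary test lost 28 calls, leaving out day 3 lost 9, day 1 lost 6, day 4 lost 3 and day 2 lost 0, and robust moderation and pooling the spread with the uninduced set lost 5 each. Centring each array on its median gave 1400 lower and 1649 higher.

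With day as a replicate block, the paired difference between the 2 SKMM1 sets called 0 features. Deviations of same-day arrays correlated at 0.159, 0.123, 0.0822 and 0.243, so the days were not taken as pairs. The causes of these changes were not tested, beyond the fewer arrays in some settings.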

Other observations

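All 10 measured MHC class II genes had means above 0 against control shRNA, with a median of 0.30, and 2 of them passed, a share near the 17% of all named genes. Limma called 0 of the 10 without day 2 and 0 without day 3. HLA-DOB, with 1 probe, was 0.16, 2.24, 0.82 and 0.81, and CIITA, the activator of the class, was 0.39, 0.50, 0.54 and 0.49 over 11 probes (adjusted p = 0.0443 and 0.0292 by limma). CD74, the invariant chain, had a mean of 0.41 (adjusted p = 0.0602 by limma). Against uninduced cells the list median was -0.44 on day 1 and 0.52, 0.25 and 0.22 afterwards.

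Among 25 measured genes listed under the NF-kB pathway 3 fell and 3 rose. The list includes IL2RG, a common cytokine receptor chain rather than an NF-kB subunit, which was -0.57, -1.19, -1.52 and -1.22. TRAF3, a brake on the non-canonical pathway, had a mean of -0.85. The chemokine receptor CCR7 was 0.54, 2.21, 1.26 and 1.03, highest on day 2. Of 17 p53 targets 4 fell and 3 rose, TP53I3 (-1.13) and GADD45A (-0.83) at one end and BBC3 (0.92) at the other. Of 9 ID and E protein genes 0 were called by limma, the nearest being TCF4 at 0.47 (adjusted p = 0.0511). The heat shock and redox list had 4 of 15 lower and 0 higher, among them HSP90AB1 at -0.91 and TXNRD1 at -0.83. The chaperone genes HSPD1 and DNAJA3, outside this list and with 1 probe each, went the other way. Their means were 0.96 and 1.30 (adjusted p = 0.019 and 0.0112 by limma). Over the 33 lists, 112 of 544 distinct measured genes fell and 41 rose, and 25 list medians lay below 0, beside 524 lower (11.4%) and 783 higher (17%) of 4604 named genes with a median of 0.06. The lists were chosen with earlier results known.

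The remaining lists are given by their counts, beside 11.4% lower and 17% higher over all named genes. Amino acid transport and stress response genes had 2 of 18 lower and 1 higher. Unfolded protein response genes had 3 of 17 lower and 2 higher, with SEC61A1 at 1.20 and MANF at -0.79. Lists of IL-6 and JAK-STAT signalling (1 lower and 2 higher of 19), MYC targets (3 and 2 of 18), FOXO targets (2 and 3 of 14) and adhesion receptors (2 and 2 of 27) had few calls in either direction. Cholesterol and fatty acid synthesis (2 and 0 of 13), oxidative phosphorylation (1 and 0 of 10), proteasome (2 and 1 of 9) and histones (1 and 0 of 7) completed them.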
